A study of Eucalyptus nitens with 12 samples.

Results

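The comparison described here sets high Kraft pulp yield (KPY) trees of Eucalyptus nitens at the Florentine trial against high KPY trees at the Meunna trial, both in Tasmania. KPY is the share of wood mass left as pulp after Kraft cooking, and "high" means the upper extreme of KPY among the trees of a trial. Its members are 6 of the 12 RNA-seq libraries of the study, 3 bulks from each site, and the 12224 E. grandis gene identifiers with exactly 1 transcript in the table of each trial, of 16184 identifiers named in both tables. Another 3960 identifiers were left out because at least 1 table held more than 1 transcript, and 796 were named only at Florentine and 1798 only at Meunna. Each bulk pooled RNA of cambial scrapings, labelled xylem, from trees labelled 20 years old, with 11 trees in each Florentine bulk (33 trees) and 7 or 8 trees in each Meunna bulk (22 trees). The trees were untreated and grew in the field, and the 6 remaining libraries are 3 bulks of low KPY trees at each site. Florentine was sampled in May and Meunna in March of the year before, and the libraries of a trial were sequenced together on a lane of their own. Site, season and year of sampling, trees per bulk, sequencing lane and the transcript models used for counting therefore differ together, and their parts in any difference given below cannot be told apart.

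Wood is laid down by the vascular cambium, whose daughter cells on the inner side expand, deposit a thick secondary wall and die as fibres and vessels. In that wall, cellulose is spun at the plasma membrane by complexes of cellulose synthases whose tracks follow cortical microtubules built of tubulin, xylan is made in the Golgi, and lignin is polymerised in place by laccases and peroxidases. In Arabidopsis a cascade of NAC and MYB transcription factors switches on these genes together. Gene roles given below are known from Arabidopsis unless another source is named, and the match of each E. grandis gene to an Arabidopsis gene is the one in the study's annotation. A scraping is a mixture of cell types, so that fewer cells of a type and less RNA per cell cannot be told apart.

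The deposited values were read counts per transcript. Over the 12224 genes the counts summed to between 30709916 and 31262493 in the Florentine bulks and between 51271339 and 60457045 in the Meunna bulks. Levels below are normalised read counts in CPM, that is counts relative to library size after scaling by TMM (trimmed mean of M values) over the 6 libraries. They are not corrected for length, and a log2 fold change is always Florentine over Meunna. On this scale 1 count was worth 0.0333 to 0.0351 CPM at Florentine and 0.0154 to 0.0185 CPM at Meunna, and every gene had counts at both sites. The correlation of log2 CPM lay between 0.974 and 0.987 among Florentine bulks, between 0.973 and 0.987 among Meunna bulks and between 0.917 and 0.952 across sites. Meunna bulk 3 stood somewhat apart, with correlations of 0.973 and 0.976 with the other Meunna bulks and of 0.949 to 0.952 with Florentine bulks. The common biological coefficient of variation was 0.208 at Florentine and 0.215 at Meunna.

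In the groups of secondary-wall cellulose, fasciclin-like proteins, lignin, xylan, tubulins and wood regulators, between 33.3% and 66.7% of the members tested passed as higher in the Florentine high KPY bulks and at most 2 members of a group passed as lower. Of 25 heat shock and chaperone genes 13 passed as lower, and of 61 ribosomal protein genes 18 passed as lower and 4 as higher. Among all annotated genes, from which the groups were formed, 25.4% passed as higher and 14.1% as lower. The lowest of the wall shares, 33.3%, is 3 of 9 fasciclin-like genes and lies near that share. Many wall genes belong to 888 genes with known transcript positions, all from the study's lists of genes that differed by KPY class. These include 18 of 20 xylan genes, 10 of 12 tubulins, 8 of 9 fasciclin-like and 7 of 9 secondary-wall cellulose genes. Among the 888, 264 of 652 with spans overlapping by at least 90% and 95 of the other 236 passed as higher, a larger share than among annotated genes. The remaining members of these groups did not pass, and several of the counts fell when 1 bulk was left out, as given with each group. The wall result also rests on the scaling. When the 652 well-matched genes alone were fitted and scaled, 102 of the 277 among them that had passed did so again in the same direction, and 17 changed sign. Under that scaling the medians of lignin genes, fasciclin-like genes and wood regulators changed sign, and those of tubulins and xylan genes fell, as given below. Of the 12224 genes, 1967 were higher at Florentine and 2158 were lower by edgeR's quasi-likelihood test at an adjusted p (Benjamini-Hochberg) below 0.05, so 33.7% of genes passed, 16.1% higher and 17.7% lower. Most differences were small. The median log2 fold change was -0.03, the quartiles were -0.39 and 0.27, and 2.72% of genes passed with at least a 2-fold difference as higher and 6.71% as lower (333 and 820 genes). The levels of the 6 bulks did not overlap between sites in 50.7% of all genes and in 99.4% of those that passed. A lack of overlap therefore adds little for a gene that passed. When libraries were scaled by their totals alone, 1103 genes were higher and 3712 lower, so the share of higher genes among those that passed was 22.9% in place of 47.7%, and the median of all genes moved to -0.23. Leaving out 1 bulk moved the count of genes that passed from 4125 to 2336 without Florentine bulk 1, to 2543 without Florentine bulk 3 and to 2617 without Meunna bulk 2.

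Gene groups were formed from the annotation in the study's supplementary tables, of which 2660 of the tested genes had an entry. Those tables list genes that differed by KPY class or carried SNPs in these same libraries, and they are not a random draw of genes: 25.4% of the annotated genes were higher at Florentine and 14.1% were lower, with a median of 0.11. Each group below is to be read against these shares as well as those of all genes, and it is not independent evidence of a direction.

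**Figure D1:**
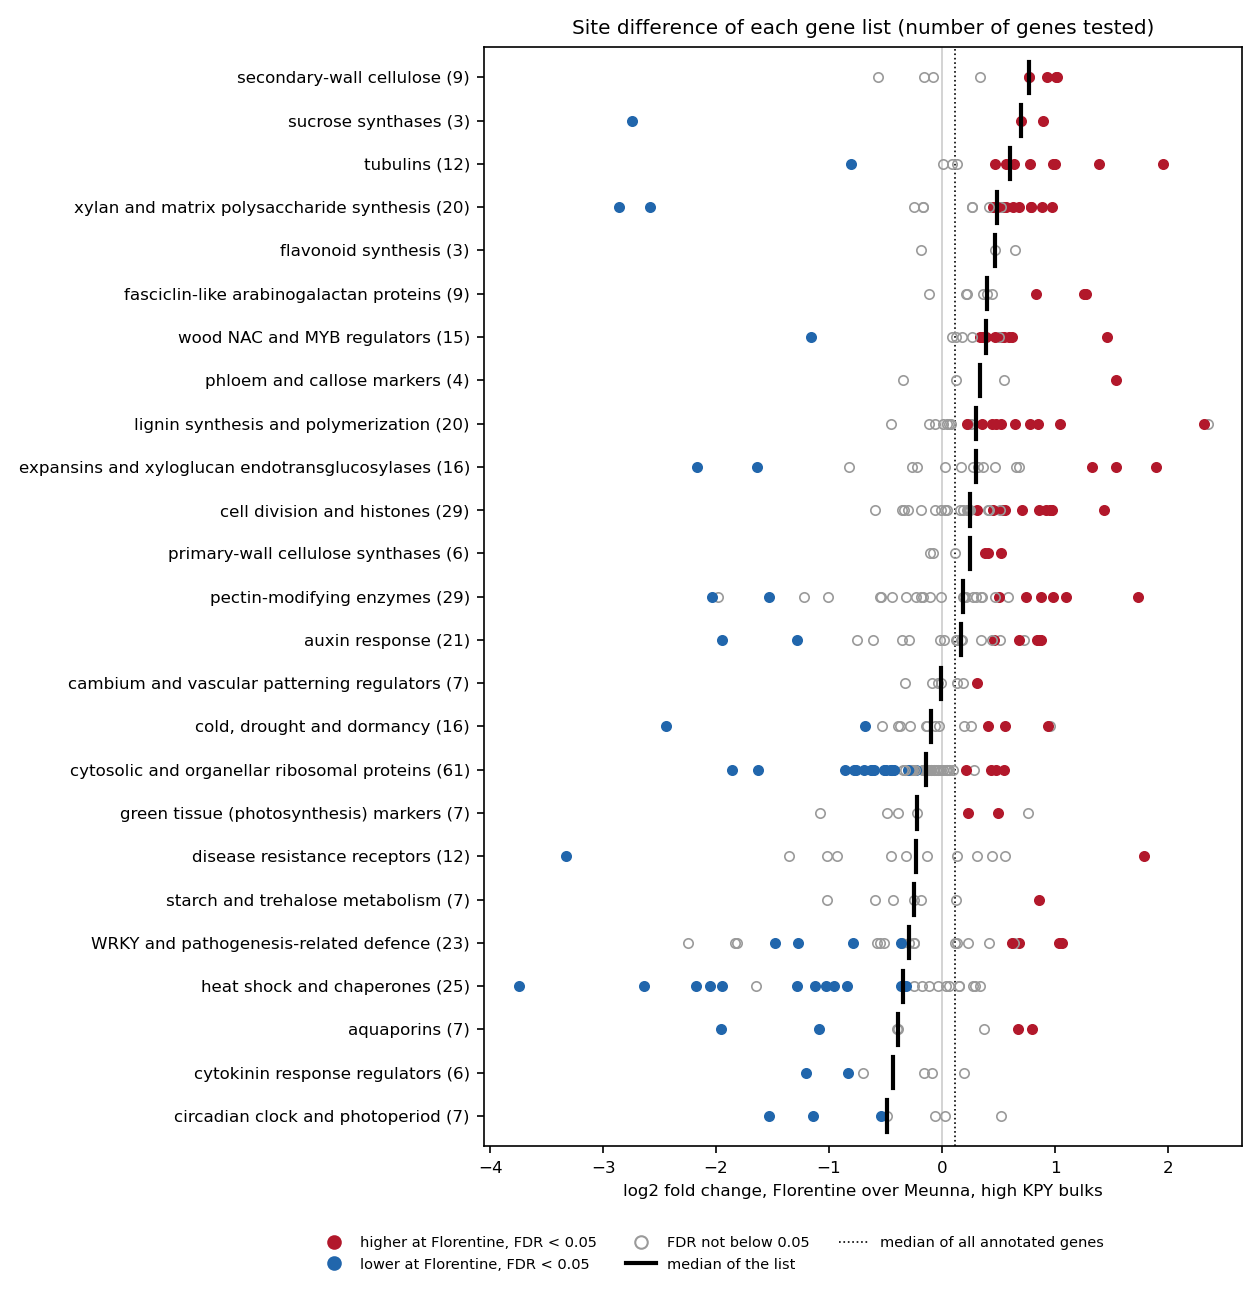
Log2 fold change (Florentine over Meunna, high KPY bulks, horizontal axis) of each member of 25 gene groups, ordered by the median of the group (bar), with filled points for genes at an adjusted p below 0.05; the dotted line is the median of all annotated genes (0.11). Secondary-wall cellulose (median 0.77), sucrose synthases (0.70) and tubulins (0.60) lie at the top, and circadian clock and photoperiod genes (-0.48) at the bottom.

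Of 9 cellulose genes of the secondary wall, 4 were higher at Florentine, 2 of them at least 2-fold, and none was lower. The log2 fold change was positive in 6 of the 9, with a median of 0.77. The summed level, carried mostly by the abundant genes below, was 19831, 16912 and 19859 CPM in the Florentine bulks, against 9360, 9286 and 10078 CPM in the Meunna bulks. The 4 genes include both secondary-wall cellulose synthases among the members. Eucgr.C00246, like the Arabidopsis subunit AT5G17420, had 5907, 4881 and 5948 CPM at Florentine, against 2632, 2757 and 2929 CPM at Meunna (log2 1.01 ± 0.11, SE, n = 3 bulks a site, adjusted p = 0.0014). Eucgr.D00476, like the subunit AT4G18780, had 3333, 2923 and 3393 CPM at Florentine, against 1557, 1660 and 1844 CPM at Meunna (log2 0.93 ± 0.10, adjusted p = 0.0015). Eucgr.H04034, a chitinase-like protein 2 of the kind that affects cellulose assembly, had 9426, 8129 and 9361 CPM at Florentine, against 4560, 4196 and 4553 CPM at Meunna (log2 1.02 ± 0.10, adjusted p = 0.0010). In all 3 genes every Florentine bulk lay above every Meunna bulk by a wide margin, and bulk 2 was the lowest of the Florentine bulks. Eucgr.J01392, a COBRA-like protein anchored at the cell surface and needed for secondary-wall cellulose, averaged 1024 CPM at Florentine and 599 CPM at Meunna (log2 0.77, adjusted p = 0.0031). The other COBRA-like genes did not pass, and Eucgr.A00190 had 47.6, 53.8 and 57.2 CPM at Florentine, against 46.5, 52.0 and 69.4 CPM at Meunna. No alternative of test, scaling or library moved the count of higher members outside 3 to 5.

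Fasciclin-like arabinogalactan proteins, cell-surface glycoproteins of which some affect stem stiffness and cellulose deposition, had 3 of 9 members higher, none lower and a median of 0.40. Eucgr.B02486, a FASCICLIN-like arabinogalactan-protein 12, had 7765, 7326 and 8139 CPM at Florentine, against 2780, 2962 and 3965 CPM at Meunna (log2 1.26 ± 0.15, adjusted p = 0.0019). Its relative Eucgr.J00938 had 4121, 3745 and 4214 CPM at Florentine, against 1582, 1589 and 1827 CPM at Meunna (log2 1.27 ± 0.10, adjusted p = 4.3e-04). Both were higher by more than the spread between bulks, with Meunna bulk 3 nearest to Florentine. Eucgr.J00937, of type 11, averaged 621 ± 61.8 CPM at Florentine and 348 ± 48.8 CPM at Meunna (SD, n = 3 each, adjusted p = 0.0037). A second gene of type 11, Eucgr.A01158, had 1012, 749 and 1174 CPM at Florentine, against 641, 835 and 802 CPM at Meunna, and its bulks overlapped. The count of higher members was 5 without Florentine bulk 2 and 6 without Meunna bulk 3, and it was 1 in a fit of all 12 libraries.

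Tubulins, the subunits of microtubules, showed the highest share of higher genes among the groups of more than 3 members. Of 12 genes, 8 were higher and 1 was lower, with a median of 0.60, and the summed level was 37027, 34513 and 39046 CPM in the Florentine bulks, against 16125, 16404 and 20182 CPM in the Meunna bulks. The alpha tubulin Eucgr.F02183 had 8851, 8280 and 9641 CPM at Florentine, against 2156, 1785 and 2952 CPM at Meunna (log2 1.96 ± 0.19, adjusted p = 9.7e-04). A second alpha tubulin, Eucgr.F00470, had 9051, 8521 and 9219 CPM at Florentine, against 4174, 4203 and 5042 CPM at Meunna (log2 1.00 ± 0.11, adjusted p = 0.0014). Among beta tubulins, Eucgr.D01847 had 3781, 3747 and 3847 CPM at Florentine, against 1373, 1399 and 1582 CPM at Meunna (log2 1.39 ± 0.09, adjusted p = 2.1e-04). The sites did not overlap in any of the 3 genes, which holds for 99.4% of all genes that passed. The transcripts of the trials shared 73.8% of their span in Eucgr.F02183 and 64.5% in Eucgr.D01847, against 94.1% in Eucgr.F00470, so the first 2 were counted over unlike stretches. Tubulins are also close copies of each other, and the split of reads among them is uncertain. The single lower tubulin, Eucgr.L02925 of beta type 1, averaged 54.0 CPM at Florentine and 94.3 CPM at Meunna (log2 -0.81, adjusted p = 0.0021). Eucgr.F01663, a beta tubulin that did not pass, had 400, 359 and 456 CPM at Florentine, against 344, 340 and 455 CPM at Meunna.

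Enzymes of xylan and other matrix polysaccharides had 11 of 20 members higher and 2 lower, with a median of 0.48. Eucgr.G01977, of the exostosin family and like an Arabidopsis xylan xylosyltransferase, had 997, 819 and 1020 CPM at Florentine, against 395, 531 and 520 CPM at Meunna (log2 0.97 ± 0.14, adjusted p = 0.0036). Eucgr.I02784, of the family that methylates glucuronic acid side chains of xylan, averaged 2292 CPM at Florentine and 1240 CPM at Meunna (log2 0.89, adjusted p = 5.8e-04). Eucgr.A01172, like the Arabidopsis glycosyltransferase IRX9 of the xylan backbone, averaged 954 CPM at Florentine and 554 CPM at Meunna (log2 0.78, adjusted p = 0.0014). The higher members thus span backbone, side chain and precursor enzymes, and UDP-xylose synthase 6 (Eucgr.J00040) averaged 1528 CPM at Florentine and 886 CPM at Meunna (adjusted p = 0.0060). Both lower members had low levels. Eucgr.B00451, a UDP-glucuronic acid decarboxylase, had 6.46, 5.00 and 4.97 CPM at Florentine, against 51.9, 22.3 and 24.3 CPM at Meunna (log2 -2.58 ± 0.36, adjusted p = 0.0030). Eucgr.F04263, a glycogenin-like glucuronosyltransferase, had 2.25, 0.633 and 0.979 CPM at Florentine, against 15.6, 7.29 and 5.05 CPM at Meunna (log2 -2.86 ± 0.60, adjusted p = 0.013). Eucgr.H02217 (DUF579), just outside the threshold, had 1169, 931 and 993 CPM at Florentine, against 844, 832 and 640 CPM at Meunna (adjusted p = 0.055, and 0.029 with the replicate number as a block). The count of higher members was 7 without Florentine bulk 1 and 4 in a fit of all 12 libraries.

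In lignin synthesis and polymerization, 10 of 20 members were higher and none was lower, with a median of 0.30. They run along the pathway: cinnamate-4-hydroxylase (Eucgr.J01844) averaged 1812 CPM at Florentine and 1299 CPM at Meunna (log2 0.48, adjusted p = 0.012). The ligase that makes coumaroyl-CoA (4-coumarate:CoA ligase 1, Eucgr.C02284) averaged 782 CPM at Florentine and 501 CPM at Meunna (log2 0.64, adjusted p = 0.012). Caffeoyl-CoA O-methyltransferase (Eucgr.I01134) averaged 1246 CPM at Florentine and 726 CPM at Meunna (log2 0.78, adjusted p = 0.0014). Laccases, which oxidise monolignols in the wall, gave a mixed picture. Eucgr.G03028, like an Arabidopsis laccase of stem lignification, had 280, 283 and 306 CPM at Florentine, against 144, 178 and 101 CPM at Meunna (log2 1.04 ± 0.19, adjusted p = 0.0080). Laccase 17 (Eucgr.K03111) had 668, 579 and 665 CPM at Florentine, against 292, 337 and 434 CPM at Meunna (log2 0.85 ± 0.15, adjusted p = 0.0070). Laccase 5 (Eucgr.G03098) averaged 380 CPM at Florentine and 412 CPM at Meunna and did not pass, and neither did phenylalanine ammonia-lyase 2 (Eucgr.J01079), the entry enzyme, which had 1351, 1157 and 1123 CPM at Florentine, against 1288, 1115 and 1024 CPM at Meunna. The largest fold among the genes that passed, in the coumaroyl 3-hydroxylase Eucgr.A02189 (cytochrome P450 98A3), came with a neighbour that went the other way. Eucgr.A02189 had 2042, 1710 and 1965 CPM at Florentine, against 458, 333 and 353 CPM at Meunna (log2 2.32 ± 0.15, adjusted p = 1.9e-04). The next gene identifier, Eucgr.A02190, carries the same annotation, was left out because it has 2 transcripts at Meunna, and summed to 1720, 1361 and 1635 CPM at Florentine, against 2178, 2102 and 2096 CPM at Meunna. How reads were shared between these near copies was not tested. The summed level of the 20 members was 14164, 11902 and 13328 CPM in the Florentine bulks, against 9088, 9117 and 8701 CPM in the Meunna bulks. In a fit of all 12 libraries 4 members were higher, and without bulk 3 of both sites 6 were.

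**Figure D2:**
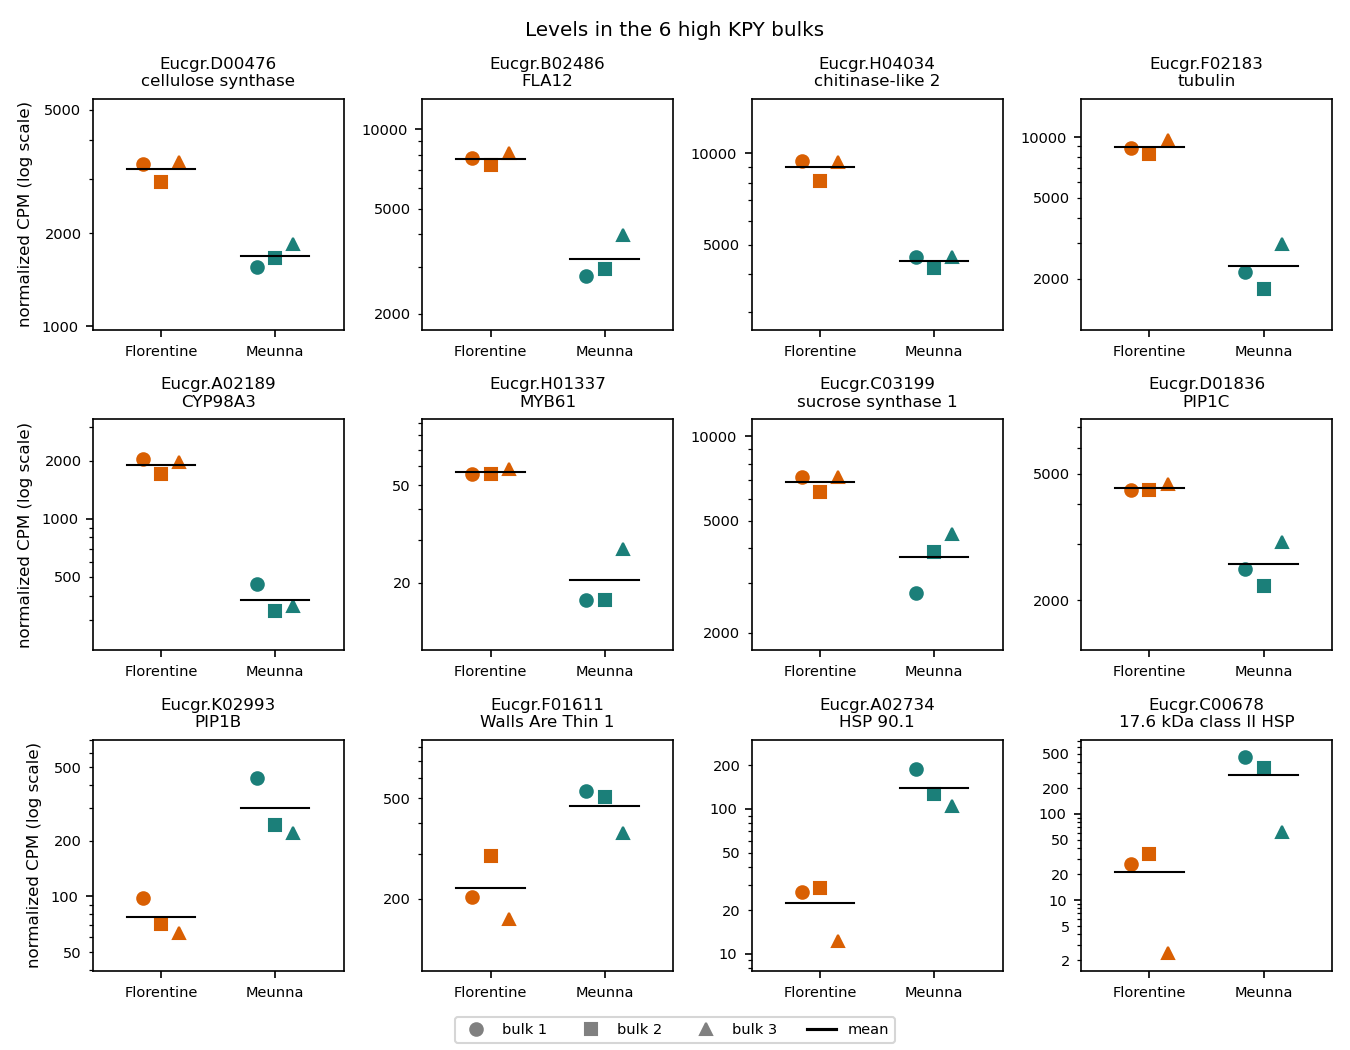
Normalized CPM (log scale) of 12 genes in the 3 Florentine and 3 Meunna high KPY bulks, with bulk number as symbol and the mean as a line. Cellulose synthase Eucgr.D00476 lies between 2923 and 3393 CPM at Florentine and between 1557 and 1844 CPM at Meunna, whereas HSP90.1 (Eucgr.A02734) lies between 12.2 and 28.5 CPM at Florentine and between 104 and 187 CPM at Meunna.

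Regulators of the wood cascade had 9 of 15 members higher and 1 lower, with a median of 0.39. The largest fold among the higher members was that of MYB61 (Eucgr.H01337), which affects xylem and resource use, with 55.5, 55.6 and 58.1 CPM at Florentine, against 16.9, 17.1 and 27.5 CPM at Meunna (log2 1.46 ± 0.20, adjusted p = 0.0029). The fibre-wall switch NAC 12 (Eucgr.E01053) averaged 305 CPM at Florentine and 239 CPM at Meunna (log2 0.35, adjusted p = 0.028). VND1 (Eucgr.I02366), a vessel regulator, averaged 192 CPM at Florentine and 134 CPM at Meunna (log2 0.52, adjusted p = 0.0030). MYB46 (Eucgr.B03684), a second-tier switch, overlapped between sites, with 267, 221 and 274 CPM at Florentine, against 197, 198 and 240 CPM at Meunna (adjusted p = 0.13, and 0.047 with the replicate number as a block). The lower member was NAC 007 (Eucgr.D02027), a vessel factor, with 5.69, 5.00 and 7.45 CPM at Florentine, against 17.2, 13.9 and 9.55 CPM at Meunna (log2 -1.16 ± 0.26, adjusted p = 0.016, and 0.065 without Florentine bulk 1). The count of higher members depended on single bulks: it was 3 without Florentine bulk 1, 3 without Florentine bulk 3, 4 without Meunna bulk 1 and 5 without Meunna bulk 2, and it was 4 with library size only as scaling.

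Sucrose synthases, which release UDP-glucose for cellulose, went in both directions. Eucgr.C03199, of type 1, had 7151, 6337 and 7179 CPM at Florentine, against 2767, 3889 and 4483 CPM at Meunna (log2 0.89 ± 0.18, adjusted p = 0.011). Eucgr.C00769, of type 4, had 1960, 1428 and 1487 CPM at Florentine, against 987, 879 and 1139 CPM at Meunna (log2 0.70 ± 0.15, adjusted p = 0.014, and 0.055 without Meunna bulk 2). The remaining gene tested, Eucgr.F01010, also of type 1 and at a low level, was lower, with 3.58, 3.46 and 2.59 CPM at Florentine, against 26.6, 17.6 and 20.2 CPM at Meunna (log2 -2.74 ± 0.22, adjusted p = 4.8e-04). The 2 higher members did not pass in a fit of all 12 libraries.

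Cell division and motor genes had 11 of 29 members higher and none lower, with a median of 0.25 that fell to 0.06 with library size only. Of the 11 higher members 6 were kinesins, motors that move along microtubules. Kinesin 2 (Eucgr.F03419) had 909, 719 and 949 CPM at Florentine, against 387, 422 and 514 CPM at Meunna (log2 0.96 ± 0.15, adjusted p = 0.0041). Cyclin A1;1 (Eucgr.F03815), a mitotic cyclin, had 29.5, 28.5 and 29.3 CPM at Florentine, against 10.1, 8.78 and 13.3 CPM at Meunna (log2 1.44 ± 0.17, adjusted p = 0.0016). Cyclin J18 (Eucgr.B02652) averaged 33.4 ± 2.63 CPM at Florentine and 16.99 ± 2.15 CPM at Meunna (SD, n = 3 each, adjusted p = 0.0024). No histone gene passed, and the histone Eucgr.L02144 had 302, 344 and 340 CPM at Florentine, against 308, 295 and 353 CPM at Meunna. The count of higher members was 7 without Florentine bulk 1 and 6 in a fit of all 12 libraries.

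Genes of the expanding cell and of its primary wall formed 3 groups. Of 6 primary-wall cellulose synthases 3 were higher and none lower (median 0.25), of 16 expansins and xyloglucan endotransglucosylases 3 were higher and 2 lower (median 0.30), and of 29 pectin-modifying enzymes 6 were higher and 2 lower (median 0.19). The shares of higher members were 50%, 18.8% and 20.7%, against 25.4% of annotated genes, so the last 2 lie below that share. Cellulose synthase 1 (Eucgr.C02801) had 989, 952 and 1040 CPM at Florentine, against 608, 668 and 798 CPM at Meunna (log2 0.52 ± 0.11, adjusted p = 0.013, with 0.0504 without Florentine bulk 3 and 0.053 without Meunna bulk 2). The primary-wall count was 1 without Florentine bulk 1 or Meunna bulk 1 and 0 without Florentine bulk 3 or Meunna bulk 2, and 1 with library size only. Expansin A4 (Eucgr.B02358), which loosens growing walls, had 16.95, 16.6 and 18.9 CPM at Florentine, against 50.7, 35.8 and 77.1 CPM at Meunna (log2 -1.64 ± 0.27, adjusted p = 0.0052). Among expansins and their partners the higher count was 1 without Meunna bulk 2, 8 without Meunna bulk 3 and 5 with the replicate block, and the lower count was 1 without Florentine bulk 3. The pectin methylesterase Eucgr.C00760 had 7.48, 7.80 and 5.25 CPM at Florentine, against 31.5, 31.5 and 21.4 CPM at Meunna (log2 -2.04 ± 0.22, adjusted p = 0.0014). The pectin acetyl esterase Eucgr.H01338 went the other way, with 14.5, 20.5 and 14.4 CPM at Florentine, against 4.76, 3.00 and 7.09 CPM at Meunna (log2 1.74 ± 0.33, adjusted p = 0.0088). Pectin-modifying enzymes had 11 members higher without Meunna bulk 3, 4 lower without Florentine bulk 2 and 6 lower with the replicate block, and their median was -0.0018 with library size only.

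Hormone and meristem genes gave small counts, to be read beside 25.4% higher and 14.1% lower among annotated genes. Among all genes 16.1% were higher and 17.7% lower. The shares were 23.8% higher and 9.52% lower in auxin response genes, 33.3% lower in cytokinin regulators and 14.3% higher in cambium regulators. Of 7 cambium and vascular patterning regulators 1 was higher and none lower (median -0.01, with a sign that changed with the scaling and when Florentine bulk 1 or 2 or Meunna bulk 3 was left out). That gene, the homeobox gene Eucgr.F03066, had 1033, 963 and 1108 CPM at Florentine, against 790, 801 and 919 CPM at Meunna (log2 0.31 ± 0.09, adjusted p = 0.044), and it passed neither with upper quartile scaling (adjusted p = 0.055) nor without Florentine bulk 1 (0.115), Florentine bulk 3 (0.144), Meunna bulk 1 (0.128) or Meunna bulk 2 (0.146). The cambium group had 3 members higher without Meunna bulk 3 and 1 lower with the replicate block. Of 6 cytokinin response regulators 2 were lower and none higher (median -0.43), with 1 lower without Florentine bulk 1 or Meunna bulk 1. The type-A response regulator 9 (Eucgr.K01639), a feedback inhibitor of cytokinin signalling, had 53.6, 58.9 and 63.8 CPM at Florentine, against 136, 131 and 138 CPM at Meunna (log2 -1.20 ± 0.08, adjusted p = 2.6e-04). This gene differed far beyond the spread between bulks. Of 21 auxin response genes 5 were higher and 2 lower (median 0.17, and -0.02 with library size only). The higher count of that group was 3 without Florentine bulk 1, Florentine bulk 3 or Meunna bulk 1 and 8 without Meunna bulk 3, and the lower count 1 without Florentine bulk 1 or Meunna bulk 2 and 4 without Florentine bulk 2. The AUX/IAA repressor Eucgr.H04336 had 4.88, 7.10 and 7.73 CPM at Florentine, against 18.8, 11.6 and 17.6 CPM at Meunna (log2 -1.29 ± 0.25, adjusted p = 0.010). Eucgr.F01611, like WALLS ARE THIN 1, a vacuolar auxin transporter needed for thick fibre walls, had 203, 295 and 165 CPM at Florentine, against 532, 505 and 364 CPM at Meunna (log2 -1.08 ± 0.24, adjusted p = 0.014, and 0.057 without Florentine bulk 1).

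Heat shock and chaperone genes had the highest share of lower members among the 25 groups, 52%. Of 25 members tested, 13 were lower at Florentine, 8 of them at least 2-fold, and none was higher, with a median of -0.34. Under some alternatives members were higher too, 2 of them with DESeq2 or without Meunna bulk 3 and 1 with the replicate block, with the exact or likelihood ratio test or without bulk 3 of both sites. The inducible chaperone HSP90.1 (Eucgr.A02734) had 26.7, 28.5 and 12.2 CPM at Florentine, against 187, 127 and 104 CPM at Meunna (log2 -2.64 ± 0.36, adjusted p = 0.0030). A small heat shock protein, the class II protein Eucgr.C00678, which holds unfolding proteins in solution, had 26.4, 34.8 and 2.41 CPM at Florentine, against 453, 339 and 62.3 CPM at Meunna (log2 -3.75 ± 1.02, adjusted p = 0.030). In both genes bulk 3 was the lowest of its site, and in Eucgr.C00678 the adjusted p was 0.088 without Florentine bulk 1, 0.051 without Florentine bulk 2, 0.077 without Meunna bulk 1 and 0.075 without Meunna bulk 2. The inducers followed the same direction. Heat shock factor A2, which sustains the response, was lower in both of its genes: Eucgr.C00664 had 17.6, 20.5 and 15.4 CPM at Florentine, against 38.1, 35.2 and 35.8 CPM at Meunna (log2 -1.03, adjusted p = 0.0020). Its relative Eucgr.C03056 had 19.1, 22.8 and 17.3 CPM at Florentine, against 34.3, 36.7 and 35.2 CPM at Meunna (log2 -0.84, adjusted p = 0.0036). Heat shock factor A9 (Eucgr.C00873), a seed factor, had 2.32, 5.10 and 0.594 CPM at Florentine, against 11.4, 15.4 and 9.46 CPM at Meunna (log2 -2.18 ± 0.65, adjusted p = 0.041, with 0.126 without Florentine bulk 1, 0.083 without Meunna bulk 1 and 0.112 without Meunna bulk 2). Among chaperones needed by unstressed cells, the heat shock cognate protein 70-1 (Eucgr.J00023) had 371, 386 and 414 CPM at Florentine, against 464, 515 and 528 CPM at Meunna (log2 -0.36, adjusted p = 0.015). The HSP70 gene Eucgr.J00025 did not pass and had 1923, 2045 and 2001 CPM at Florentine, against 2006, 2101 and 2351 CPM at Meunna. The chaperonins Eucgr.F03537 and Eucgr.B03239 did not pass, at log2 0.15 and 0.06. The count of lower members was 6 without Florentine bulk 1, 8 without Florentine bulk 2, 8 without Meunna bulk 1, 7 without Meunna bulk 2, and 11 without bulk 3 of both sites.

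**Figure D3:**
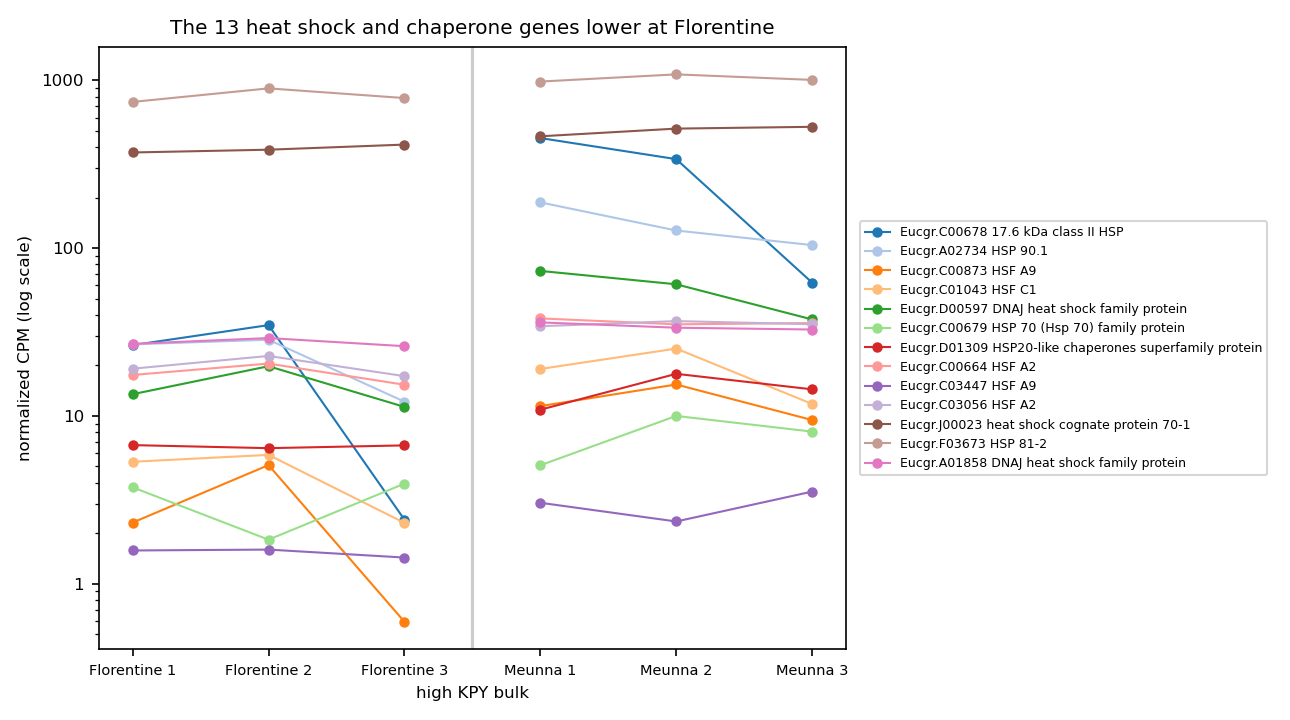
Normalized CPM (log scale) of the 13 heat shock and chaperone genes that were lower at Florentine, in each high KPY bulk; lines join the bulks of 1 gene at 1 site. Eucgr.C00678 lies between 2.41 and 34.8 CPM at Florentine and between 62.3 and 453 CPM at Meunna, and bulk 3 is the lowest at both sites.

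Other stress and timing genes gave smaller counts. Of 7 circadian clock and photoperiod genes 3 were lower and none higher (median -0.48), with 1 lower without Florentine bulk 1, Florentine bulk 3 or Meunna bulk 2, and 1 higher with the replicate block or without Meunna bulk 3. CONSTANS-like 5 (Eucgr.C00194) had 14.4, 13.9 and 7.80 CPM at Florentine, against 39.3, 42.1 and 22.7 CPM at Meunna (log2 -1.53 ± 0.31, adjusted p = 0.011). The clock-regulated RNA-binding protein Eucgr.E01060 had 1338, 1478 and 1277 CPM at Florentine, against 1363, 1456 and 1464 CPM at Meunna, and did not differ beyond its spread. Of 16 cold, drought and dormancy genes 3 were higher and 2 lower (median -0.10, and 0.03 without Meunna bulk 3). C-repeat/DRE binding factor 1 (Eucgr.A02834), a switch of cold acclimation, overlapped between sites although it passed, with 9.44, 8.20 and 4.72 CPM at Florentine, against 60.0, 52.7 and 8.70 CPM at Meunna (log2 -2.44 ± 0.68, adjusted p = 0.032). It passed without Meunna bulk 3 only, its adjusted p being 0.075 to 0.097 without any other single bulk. The lower count of that group was 0 without Florentine bulk 1, Florentine bulk 3, Meunna bulk 1 or Meunna bulk 2, 1 without Florentine bulk 2, 4 without Meunna bulk 3 and 4 with the replicate block. Of 7 starch and trehalose genes 1 was higher and none lower (median -0.25), with 3 lower with the replicate block and 2 lower without Florentine bulk 2. Beta-amylase 2 (Eucgr.E00138) had 64.6, 50.9 and 66.6 CPM at Florentine, against 31.7, 30.1 and 38.5 CPM at Meunna (log2 0.86 ± 0.14, adjusted p = 0.0053). Of 3 flavonoid genes none passed, with a median of 0.47, but 1 passed as higher without Meunna bulk 3 and 1 as lower without Meunna bulk 1.

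Ribosomal protein genes were lower in 18 of 61 members and higher in 4, with a median of -0.14. RPS4A (Eucgr.H02737) of the small cytosolic subunit had 161, 195 and 167 CPM at Florentine, against 328, 331 and 289 CPM at Meunna (log2 -0.86 ± 0.10, adjusted p = 0.0016). The elongation factor Eucgr.J01121, whose closest Arabidopsis gene encodes elongation factor 1-alpha, had 189, 207 and 201 CPM at Florentine, against 607, 629 and 651 CPM at Meunna (log2 -1.66 ± 0.07, adjusted p = 3.8e-05). Both genes were lower in every Florentine bulk. Elongation factor 1-alpha is encoded by near-identical copies, so the level of this one gene is uncertain. A translation factor counted within the ribosomal group, Eucgr.F01462, had 925, 990 and 964 CPM at Florentine, against 940, 996 and 1084 CPM at Meunna. With library size only as scaling, 41 members were lower and 2 higher, so the size of these counts rests on the scaling.

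Aquaporins, channels for water, split by gene. Plasma membrane intrinsic protein 1C (Eucgr.D01836) had 4440, 4424 and 4628 CPM at Florentine, against 2497, 2222 and 3050 CPM at Meunna (log2 0.80 ± 0.13, adjusted p = 0.0050). Plasma membrane intrinsic protein 1B (Eucgr.K02993) was lower, with 98.5, 70.8 and 63.3 CPM at Florentine, against 439, 244 and 221 CPM at Meunna (log2 -1.96 ± 0.30, adjusted p = 0.0041). Of the 7 aquaporins 2 were higher and 2 lower, and the second lower one, the tonoplast protein Eucgr.J00051, did not pass with the replicate block (adjusted p = 0.055) or without Florentine bulk 2 (0.113), Florentine bulk 3 (0.130), Meunna bulk 1 (0.061), Meunna bulk 2 (0.122) or Meunna bulk 3 (0.077). Their median was -0.39. Of 23 WRKY and pathogenesis-related genes 4 were higher and 4 lower (median -0.30), and 9 were lower with the replicate block. WRKY 13 (Eucgr.I00305), a factor of stem development, had 191, 182 and 198 CPM at Florentine, against 91.7, 95.3 and 87.0 CPM at Meunna (log2 1.06 ± 0.07, adjusted p = 2.2e-04). WRKY 11 (Eucgr.C04011), a negative regulator of basal defence, had 4.74, 8.86 and 5.07 CPM at Florentine, against 15.2, 18.8 and 18.2 CPM at Meunna (log2 -1.48 ± 0.26, adjusted p = 0.0069). The count of lower members was 2 without Florentine bulk 1, Florentine bulk 3, Meunna bulk 1 or Meunna bulk 2 and 7 without Meunna bulk 3, and that of higher members 2 without Florentine bulk 1, Florentine bulk 3 or Meunna bulk 1. Of 12 disease resistance receptors 1 was higher and 1 lower (median -0.23), with 2 lower with the replicate block or without Meunna bulk 2, none higher without Florentine bulk 1, Florentine bulk 2 or Meunna bulk 2, and 2 higher without Meunna bulk 3. The lower one, the TIR-NBS-LRR gene Eucgr.H02490, had 6.28, 4.03 and 3.39 CPM at Florentine, against 72.4, 27.6 and 37.3 CPM at Meunna (log2 -3.32 ± 0.42, adjusted p = 0.0023).

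Markers of tissues that a scraping could also hold were counted at both sites. The 7 green-tissue genes summed to between 348 and 385 CPM in the Florentine bulks and between 261 and 328 CPM in the Meunna bulks, with 2 higher, none lower and a median of -0.22. Every Florentine bulk thus had a larger sum than every Meunna bulk. Most of the sum came from the 2 higher genes, Eucgr.E00015 (208 CPM on average at Florentine, 147 CPM at Meunna) and Eucgr.B00592 (139 and 118 CPM). Neither of the 2 passed in every alternative: photosystem I P subunit (Eucgr.E00015) and photosystem II reaction center protein D (Eucgr.B00592) both missed the threshold without Florentine bulk 1 or 3 and without Meunna bulk 1 or 2, and the median changed sign with the replicate block (0.22) and without Meunna bulk 1 (0.23). A chlorophyll A-B binding protein (Eucgr.B01896), a defining marker of green tissue, did not pass and leaned the other way, with averages of 2.68 CPM at Florentine and 3.51 CPM at Meunna. The 4 phloem and callose genes summed to between 33.6 and 40.5 CPM at Florentine and between 25.6 and 36.9 CPM at Meunna, and 1 was higher, which did not pass without Florentine bulk 1, Meunna bulk 1 or Meunna bulk 2. The phloem protein of type 2 averaged 2.30 CPM at Florentine and 2.92 CPM at Meunna. The part of such tissues in the wall and stress differences was not tested. The defining markers of xylem, the secondary-wall cellulose synthases and laccase 17, were present in every bulk, as the values above show.

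The genes of largest change raised the question of whether the same transcript was counted at both sites, because transcripts were predicted separately in each trial. Eucgr.C00092, a choline monooxygenase-like gene, had 869, 830 and 924 CPM at Florentine, against 1.60, 1.78 and 3.80 CPM at Meunna (log2 8.52 ± 0.36, adjusted p = 3.8e-05). Its transcripts in the 2 trials shared 6.04% of their span. Eucgr.C00096, a hAT dimerisation domain gene, had 0.878, 0.900 and 0.245 CPM at Florentine, against 253, 287 and 290 CPM at Meunna (log2 -8.67 ± 0.31, adjusted p = 2.6e-05). The identifiers within 2 numbers of each such gene were then looked up, a step added after seeing the data. Next to Eucgr.C00096, Eucgr.C00095, a calcium pump, had 516 CPM on average at Florentine and was not named at Meunna. Eucgr.F02017, an aldolase, had 661, 582 and 612 CPM at Florentine, against 4.52, 3.87 and 4.95 CPM at Meunna (log2 7.12), and its neighbour Eucgr.F02018 averaged 66.0 CPM at Florentine and 1105 CPM at Meunna. The NIMA-related kinase 2 gene Eucgr.H04381 had 6.95, 4.10 and 4.51 CPM at Florentine, against 145, 141 and 173 CPM at Meunna (log2 -4.88), and its neighbour Eucgr.H04382 averaged 248 CPM at Florentine and was not named at Meunna. In these 3 cases the gene and its neighbour differed in opposite directions or the neighbour was named at 1 site only, and how reads were shared between them was not tested.

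Other annotated genes of largest change had lower levels. Glutamine synthetase 2 (Eucgr.B01170), which assimilates ammonium in plastids and mitochondria, had 36.0, 11.6 and 21.2 CPM at Florentine, against 2.06, 2.41 and 1.60 CPM at Meunna (log2 3.50 ± 0.43, adjusted p = 0.0021), and no other identifier within 2 numbers was named in either table. The receptor gene Eucgr.C03974 had 20.2, 35.6 and 22.5 CPM at Florentine, against 4.44, 4.70 and 3.43 CPM at Meunna (log2 2.64 ± 0.26, adjusted p = 9.4e-04). The DNA glycosylase Eucgr.E04327 averaged 55.9 CPM at Florentine and 5.13 CPM at Meunna (log2 3.45). Its transcripts in the 2 trials shared 53.3% of their span, so it was counted over unlike stretches. The transporter Eucgr.B02543 averaged 13.9 CPM at Florentine and 2.05 CPM at Meunna (log2 2.75). Among the lower genes, cation exchanger 3 (Eucgr.A00502) averaged 1.33 CPM at Florentine and 27.9 CPM at Meunna (log2 -4.39). Glutathione S-transferase PHI 9 (Eucgr.K01236) averaged 3.24 CPM at Florentine and 57.5 CPM at Meunna (log2 -4.15), and the lectin kinase Eucgr.C00249 averaged 3.74 CPM at Florentine and 61.6 CPM at Meunna (log2 -4.03). The transporter Eucgr.A02191 (log2 -4.58) had few reads at Florentine (52, 19 and 0 counts) and varied widely between Meunna bulks (1287, 2225 and 99 counts). It had 1.83, 0.633 and 0 CPM at Florentine, against 22.9, 34.2 and 1.84 CPM at Meunna. Its adjusted p of 0.037 became 0.059 without Florentine bulk 1, 0.094 without Florentine bulk 2 and 0.073 without Florentine bulk 3. It became 0.082 without Meunna bulk 1 and 0.105 without Meunna bulk 2.

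Positions of both transcripts were held for 888 of the tested genes, all from the study's lists of genes that differed by KPY class. Those lists were drawn from the high KPY libraries used here and the low KPY libraries, so these genes are not a random draw. In 652 of them the spans of the trials overlapped by at least 90% of each, and of these 264 were higher and 13 lower, with a median of 0.43. In the remaining 236 genes 95 were higher and 13 lower, with a median of 0.44. The shares with at least a 2-fold difference were 5.98% of the well-matched genes and 19.9% of the others. Among wall genes matched at 90% or more, 4 of 5 secondary-wall cellulose genes, 9 of 13 xylan genes, 6 of 9 lignin genes, 3 of 8 fasciclin-like genes and 4 of 7 tubulins were higher, the last with 1 lower. These counts are to be read beside 264 of 652 for all well-matched genes, and the fasciclin-like share lies below that. The matched medians were 0.93 for secondary-wall cellulose, 0.54 for xylan, 0.44 for lignin, 0.41 for fasciclin-like genes and 0.47 for tubulins, against 0.43 for all 652. No heat shock or ribosomal protein gene had positions of both transcripts. Scaling on these 652 genes alone takes their centre as 0. The median then became 0.00 and the counts 89 higher and 99 lower, and of the 277 genes that had passed 102 passed again in the same direction and 17 changed sign. Under that scaling 4 of 5 secondary-wall cellulose genes were higher and 1 was lower (median 0.49), as were 3 and 2 of 7 tubulins (median 0.04) and 4 and 0 of 13 xylan genes (median 0.09). Medians changed sign in lignin genes (-0.02, 2 higher and 1 lower of 9), fasciclin-like genes (-0.04, 2 higher and 1 lower of 8) and wood regulators (-0.06, 1 higher and 0 lower of 7).

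For orientation among genes that did not differ, Eucgr.H04673, a cytosolic glyceraldehyde-3-phosphate dehydrogenase of glycolysis, had 1532, 1452 and 1646 CPM at Florentine, against 1452, 1597 and 1681 CPM at Meunna (log2 -0.03 ± 0.09, adjusted p = 0.82). The aldolase Eucgr.A01538, also glycolytic, had 1408, 1486 and 1335 CPM at Florentine, against 1324, 1375 and 1404 CPM at Meunna (log2 0.04 ± 0.08, adjusted p = 0.69). BAX inhibitor 1 (Eucgr.E00365), a suppressor of cell death, was lower by about 2-fold, with 258, 254 and 220 CPM at Florentine, against 546, 544 and 400 CPM at Meunna (log2 -1.02 ± 0.14, adjusted p = 0.0028).

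The site difference in low KPY trees, measured in other trees and libraries but on the same transcript models and sampling dates, gives a view of how far the pattern belongs to the high KPY class. In a fit of all 12 libraries 1945 genes were higher and 1328 lower at Florentine in low KPY bulks, 15.9% and 10.9% of genes. Of the 1967 genes higher in high KPY bulks, 1930 had a positive log2 in low KPY bulks and 1342 also passed there, and of the 2158 lower genes 2047 had a negative log2 and 1074 passed. The difference between the 2 site contrasts passed in 0 genes (0%) by edgeR's quasi-likelihood test, with a smallest adjusted p of 0.114, whereas 790 genes had an unadjusted p below 0.05 and DESeq2 found 65. No group or gene below is therefore shown by the quasi-likelihood test to differ between KPY classes.

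In the fit of all 12 libraries, the median of secondary-wall cellulose genes was 0.78 in high KPY bulks and 1.48 in low KPY bulks. It was 0.41 in high and 1.19 in low KPY bulks for fasciclin-like proteins, 0.32 and 1.04 for lignin, 0.50 and 1.15 for xylan, and 0.61 and 0.99 for tubulins. The median of all genes was -0.02 in high KPY bulks and 0.04 in low KPY bulks. Heat shock genes had a median of -0.33 in high and -0.13 in low KPY bulks, with 10 of 25 lower in high and 5 of 25 lower in low KPY bulks of that fit. The difference of these medians and counts between classes was not tested. HSP90.1 (Eucgr.A02734) had log2 -1.54 in low KPY bulks (adjusted p = 0.014), and the class II small heat shock protein (Eucgr.C00678) -1.63 (adjusted p = 0.22). Aquaporin 1B (Eucgr.K02993) had log2 -1.96 in high KPY bulks (6-library fit) and -0.04 in low KPY bulks (adjusted p = 0.96). The tubulin Eucgr.F02183 had log2 1.96 in high KPY bulks (6-library fit) and 1.95 in low KPY bulks.

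**Figure D4:**
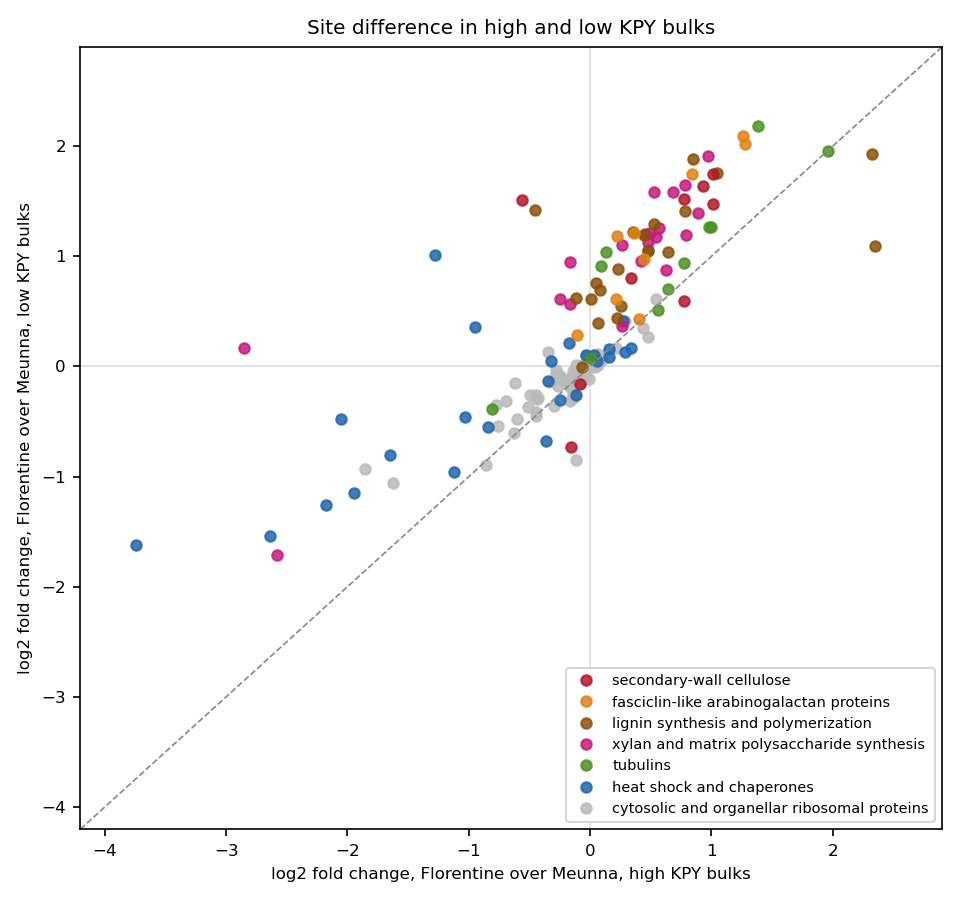
Log2 fold change of Florentine over Meunna in high KPY bulks (6-library fit, horizontal axis) and in low KPY bulks (12-library fit, vertical axis) for the members of 7 gene groups; the dashed line marks equal values. Members of the wall groups lie mostly above the line, with medians of 0.77 in high and 1.48 in low KPY bulks for secondary-wall cellulose, and most of the 13 lower heat shock genes lie above it on the negative side.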

How the data were processed

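RNA of cambial scrapings was sequenced in 12 bulk libraries, of which the 6 of high KPY trees were compared. Adapters were trimmed by the authors in CLC Genomics Workbench and poor-quality reads were dropped with Popoolation. Reads of a trial were then pooled, aligned by TopHat with Bowtie to E. grandis (build not given in the sources used here) and assembled into transcripts by Cufflinks, once for each trial, before BEDtools counted the reads of each bulk. The deposited values are whole read counts per transcript, not normalized, and each transcript had reached 1 CPM in at least 3 libraries of its trial. Transcripts without a gene identifier (3692 at Florentine and 4754 at Meunna) held 4.00% and 4.91% of the high KPY counts and were left out. Replicates are bulks of separate trees.

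Counts were fitted in R 4.3.3 with edgeR 4.0.16 (quasi-likelihood F test, site as the only factor, TMM over the 6 libraries, Benjamini-Hochberg over 12224 genes, threshold 0.05, no further filter). Standard errors were taken as the absolute log2 fold change over the square root of the F statistic. The correlations used log2(CPM + 1). The study used edgeR but does not name the test, and DESeq2 1.42.0 served as an alternative. The scripts were tested on simulated data. The simulated data took the same genes for both sites, so unlike transcript models were not covered. Depth limits precision at low levels through counting error. Spread between bulks is a separate limit, and leaving out 1 bulk gave 2336 to 4933 genes that passed.

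The labels number the bulks 1 to 3 at each site without saying what a number marks. Same-numbered bulks deviated together (correlations 0.151, 0.263 and 0.465, all over 0.1). Some bulks of unlike number did too: Florentine bulk 2 with Meunna bulk 1 gave 0.183, and Florentine bulk 1 with Meunna bulk 2 gave 0.108. Pairs of bulk 3 with bulk 1 or 2 of the other site gave -0.339 to -0.194. A pairing number by number is therefore not shown, and the fit with the number as a block is given where it changes a call. Other alternatives were the exact and likelihood ratio tests, other scalings and filters, a fit of all 12 libraries, and leaving out each bulk. Leaving out bulk 3 of both sites, annotated genes only, values of neighbouring identifiers, the DESeq2 interaction, counts of group members under each alternative, and scaling on well-matched spans were added after seeing the data.

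Annotations and positions came from the study's supplementary tables, used in part; no value was taken from them. The comparison and the 25 gene groups were chosen with earlier results of these data known. Named genes are the 6 of largest change in each direction that passed, did not overlap, averaged at least 10 CPM at the higher site and were annotated; the 3 of highest mean CPM in each direction with at least a 2-fold difference; up to 3 members per group that passed with the largest change and the one of highest mean CPM that did not; and 3 of high mean CPM near 0. Further group members were named after their values were seen, to show roles.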

Additional observations from a re-analysis of the deposited data

How the results depend on the processing

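No gene that passed was called in the opposite direction under any alternative. Of the 103 named genes, 78 passed, and 47 of these passed under every alternative in which they were tested, other than the stricter thresholds. Most named genes were absent from the fits of well-matched genes, and a few from the fit at 5 CPM. In the first fit of well-matched genes 25 named genes kept their status and 2 no longer passed. Eucgr.C00092, whose transcripts shared 6.04% of their span, was not tested there and counts among the 47. The counts of genes that passed changed as follows. At an adjusted p below 0.01, 1813 genes passed (900 higher, 913 lower). With at least a 2-fold difference 1153 passed (333 higher, 820 lower). With transcripts summed per gene 6369 of 16184 passed (3032 higher, 3337 lower). With library size only 4815 passed (1103 higher, 3712 lower). Over the 652 genes with well-matched spans 289 passed (270 higher, 19 lower), or 188 (89 higher, 99 lower) when scaled on those genes alone. Over annotated genes only 964 of 2660 passed (622 higher, 342 lower). Leaving out 1 bulk gave 2336 to 4933 genes, 1186 to 2419 higher and 1150 to 2514 lower, and leaving out bulk 3 of both sites 3877. The replicate block gave 4936 genes (2309 higher, 2627 lower), and it changed no call of a named gene other than those given with it and Eucgr.B00168 and Eucgr.B02686, which passed as lower under it (adjusted p = 0.030 and 0.034). DESeq2 gave 5091 genes (2575 higher, 2516 lower), and for the difference between the site contrasts 65 genes against 0. Group counts also moved by over 1.5 times as follows, apart from the stricter thresholds, the tests of well-matched genes only and the values given with the groups. In the fit of all 12 libraries there were 4 higher and none lower for wood regulators, 1 higher for primary-wall cellulose synthases, 2 higher and 1 lower for auxin response, 1 higher and 1 lower for cold, drought and dormancy, none higher for the cambium group, none higher and 1 lower for green tissue, and 1 lower for cytokinin regulators and for aquaporins. With DESeq2 there were 5 lower for pectin enzymes, 5 higher for expansins and their partners, 7 lower for WRKY and pathogenesis-related genes, 3 lower for disease resistance receptors, 1 higher for clock genes and for cytokinin regulators, and 1 lower for starch genes. The exact and likelihood ratio tests both gave 5 lower for pectin enzymes, 5 higher for expansins and their partners, 3 lower for disease resistance receptors, and 1 higher and 1 lower for green tissue. With library size only there were 2 lower for the cambium group, 5 for cold, drought and dormancy, 7 for WRKY and pathogenesis-related genes, 6 for pectin enzymes, 3 for disease resistance receptors and 1 for flavonoid genes, and none higher and 1 lower for green tissue. Without bulk 3 of both sites there were 5 higher for fasciclin-like proteins and for expansins and their partners, 2 higher for the cambium group and for disease resistance receptors, 1 higher for clock and flavonoid genes, 4 lower for pectin enzymes and for cold, drought and dormancy, and 1 lower for aquaporins. At 5 CPM in at least 3 libraries there were 1 lower for aquaporins and for expansins and their partners, and none higher for phloem. Green tissue had 1 higher over annotated genes only and 1 higher and 1 lower without Florentine bulk 2, and sucrose synthases had 1 higher without Meunna bulk 2. Of the genes that had passed, 17 of 277 changed sign when scaling on well-matched genes alone and 2 of 4125 with library size only. Among named genes the first setting turned Eucgr.B00592 (log2 -0.22, adjusted p = 0.19) and Eucgr.F01663, which had not passed before (log2 -0.34, adjusted p = 0.019). The other causes of these shifts were not tested.

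Each site had 3 bulks, and transcripts were defined separately in each trial. A large fold of a single gene identifier therefore does not show that the same stretch was counted at both sites. With 1 count worth up to 0.0351 CPM, levels below 1 CPM rest on few reads, such as 25, 27 and 7 counts of Eucgr.C00096 at Florentine.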

Other observations

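There were 5 genes that passed in opposite directions in the 2 KPY classes, named here after their values were seen. The glycosyl hydrolase family 10 gene Eucgr.F00109, of a family that acts on xylan, had 129, 106 and 111 CPM in Florentine high KPY bulks, against 136, 146 and 152 CPM in Meunna high KPY bulks (log2 -0.33, adjusted p = 0.033 by edgeR's quasi-likelihood test). In low KPY bulks it had 160, 36.8 and 60.9 CPM at Florentine, against 42.5, 19.7 and 37.0 CPM at Meunna (log2 1.38, adjusted p = 0.045). The PHD finger gene Eucgr.C01402, of a chromatin reader family, had 2.67, 2.13 and 1.43 CPM in Florentine high KPY bulks, against 4.85, 5.01 and 3.06 CPM in Meunna high KPY bulks, with log2 -1.05 there and 1.31 in low KPY bulks. Eucgr.K00087, with no annotation in the tables used, was lower in high KPY bulks (log2 -0.42) and higher in low KPY bulks (log2 1.08). Eucgr.J02841 (log2 1.03 in high and -1.03 in low KPY bulks) and Eucgr.K01420 (0.30 and -0.35) went the other way. The difference between the classes did not pass in any of the 5 by the quasi-likelihood test (adjusted p from 0.225 to 0.716), and 4 of them, all but Eucgr.F00109, passed by DESeq2.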
